A study of Mus musculus with 26 samples.

Results

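The mesendoderm and primitive streak genes *T*, *Eomes*, *Mixl1*, *Gsc*, *Cer1*, *Mesp1*, *Lhx1*, and *Evx1* were followed across pluripotent states of the mouse. They were chosen by name, and all 8 were found among the 15646 genes with an expression value in all 3 states and, each as a single baited promoter fragment, among 19022 baited fragments with at least 1 interaction. The states were wild-type (WT) embryonic stem cells (ESCs), which resemble the pre-implantation epiblast, epiblast-derived stem cells (EpiSCs), which resemble the post-implantation epiblast, and ESCs without a functional *Nanog* gene (Nanog-/- ESCs). WT ESCs were the line E14Tg2a (129P2/OlaHsd) and Nanog-/- ESCs were the line RCNβH-B(t) derived from it, both grown on gelatin with serum (15% FBS) and LIF (1000 U/ml), and hygromycin selected for Nanog-/- cells during expansion. EpiSCs came from embryos of strain 129S2 and were grown on fibronectin in N2B27 medium with Activin A (20 ng/ml) and bFGF (12 ng/ml). Nanog-/- ESCs were 1 line, so that genotype and line cannot be told apart, and neither can the state, strain, and medium of EpiSCs. The strain label of the samples reads C57BL/6 for every state, which differs from the strains in their culture description.

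RNA-seq was labelled for 3 WT ESC, 4 EpiSC, and 3 Nanog-/- ESC samples, and Promoter Capture Hi-C (PCHi-C) for 5 WT ESC, 2 EpiSC, and 5 Nanog-/- ESC sequencing lanes. In PCHi-C, pieces of chromatin cut with a restriction enzyme are ligated to their neighbours in the fixed nucleus, and those ligation products that carry a promoter are then pulled out with RNA baits and sequenced. The deposited values are 1 median RPKM (reads per kilobase of gene, scaled to the number of reads in the library) for each gene and state, and 1 list of interactions for each state. Neither carries a value for a single sample. The values below therefore have no replicate error, no test between states was made from them, and a difference between states is given by its size only. The depth of the RNA libraries is unknown.

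During gastrulation, epiblast cells pass through the primitive streak and become mesoderm and definitive endoderm. Nodal (or Activin), Wnt, and Fgf signals switch on a group of transcription factors there. *T* (Brachyury) and *Eomes* are T-box factors, *Mixl1*, *Gsc*, *Lhx1*, and *Evx1* are homeobox factors, and *Mesp1* is a basic helix-loop-helix factor of early mesoderm. *Cer1* encodes a secreted antagonist of Nodal, Bmp, and Wnt ligands. *Gsc*, *Lhx1*, and *Cer1* are known from the anterior streak and the anterior endoderm, *Evx1* and *Mesp1* from the posterior streak and the nascent mesoderm.

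EpiSCs had higher RNA levels of 6 of these genes, led by *T* and *Cer1*, and the other 2, *Mesp1* and *Evx1*, were low in every state. The EpiSC medians of all genes ran above those of WT ESCs by a median factor of 1.89 (0.91 on the log2 scale, over 9077 genes at 1 RPKM or more in both), and EpiSC values were divided by this factor. Ratios were taken as log2 of RPKM + 0.1. A gene was called higher or lower at a ratio of 2-fold or more, if 1 of the compared states reached 0.5 RPKM. Against WT ESCs, 6 of 6 members that passed this filter were higher in EpiSCs and 0 were lower. *Mixl1* passed it through its EpiSC value only, so that it could not be called lower, and the other 5 were above it in both states. Over all 11308 genes that passed it, 20.0% were called higher and 17.9% lower. With EpiSC values as deposited, 47.6% of 11662 genes were higher and 10.8% lower, and the same 6 members were called. The median log2 ratio was 3.81 over all 8 members and 4.72 over the 6 that passed. Over all genes that passed it was 0.01, which the scaling sets near 0. In bulk RNA, more cells that express a gene and more RNA per cell cannot be told apart.

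The T-box factor *T* had a median of 3.37 RPKM in WT ESCs, 444 RPKM in EpiSCs (235.5 after scaling), and 1.14 RPKM in Nanog-/- ESCs. Its scaled EpiSC level was 67.8-fold above WT ESCs (6.08 on the log2 scale) and lay at percentile 98.6 of all genes in EpiSCs. *Eomes*, the other T-box factor, had 2.85, 26.2 (13.9 after scaling), and 2.33 RPKM in the same order. It was 4.74-fold above WT ESCs, the smallest EpiSC ratio among the 6 members called.

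The anterior genes *Cer1*, *Gsc*, and *Lhx1* were higher in EpiSCs as well. *Cer1* had 1.42 RPKM in WT ESCs and 233 RPKM in EpiSCs (123.6 after scaling), 81.4-fold above WT ESCs, and was listed at 0 in Nanog-/- ESCs. *Gsc* had 0.948 RPKM in WT ESCs, 47.5 in EpiSCs (25.2 after scaling), and 0.0588 in Nanog-/- ESCs. Its EpiSC level was 24.1-fold above WT ESCs. *Lhx1* had 0.633, 39.3 (20.9 after scaling), and 0.163 RPKM, and was 28.6-fold above WT ESCs. All 3 were thus at or under 1.42 RPKM in WT ESCs and above 20 RPKM in EpiSCs on the scaled values.

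*Mixl1*, a homeobox factor of the streak, had 0.318 RPKM in WT ESCs, 6.25 in EpiSCs (3.31 after scaling), and 1.01 in Nanog-/- ESCs. It was 8.17-fold above WT ESCs in EpiSCs. *Mesp1* had 0.330 RPKM in WT ESCs, 0.0422 in EpiSCs (0.0224 after scaling), and 0.323 in Nanog-/- ESCs. *Evx1* had 0.419, 0.0318 (0.0169 after scaling), and 0.0845 RPKM. Neither reached 0.5 RPKM in any state, and both had their lowest value in EpiSCs. On the scaled values the order in EpiSCs was *T*, *Cer1*, *Gsc*, *Lhx1*, *Eomes*, *Mixl1*, *Mesp1*, and *Evx1*. Without values for single samples, it cannot be said which neighbours in this order differ beyond their spread.

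**Figure D1:**
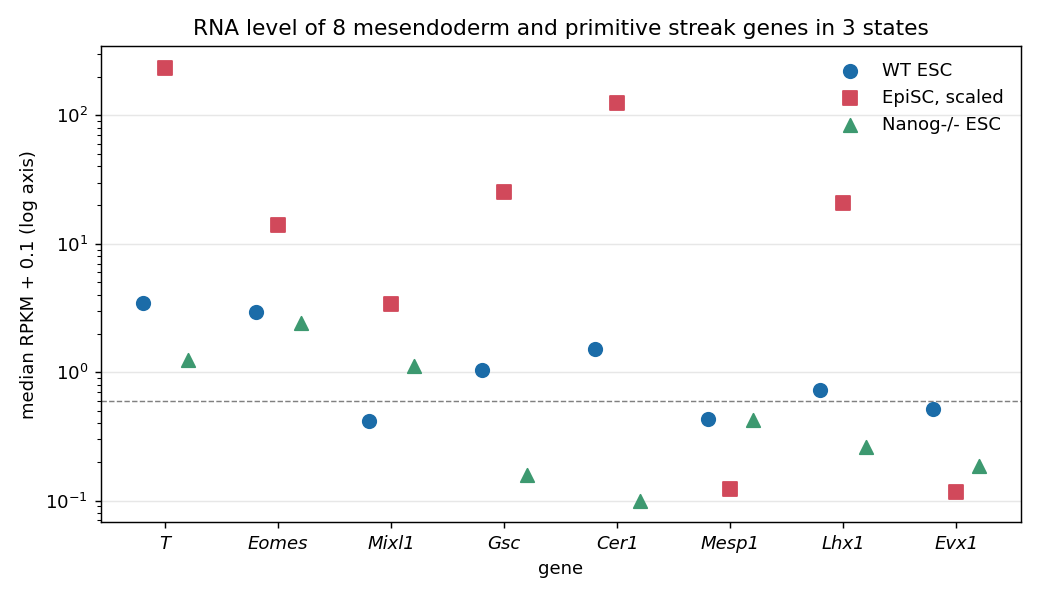
Median RPKM + 0.1 on a log axis for the 8 genes in WT ESCs (circles), EpiSCs (squares, divided by 1.89), and Nanog-/- ESCs (triangles), 1 point for each gene and state and no error bars because each point is a median with no value for single samples. The dashed line is the filter of 0.5 RPKM. The EpiSC point lies above both others for 6 genes and below both for *Mesp1* and *Evx1*.

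Nanog-/- ESCs did not share this profile. *Nanog* itself, the targeted gene, had 417.7 RPKM in WT ESCs and 22.3 RPKM in Nanog-/- ESCs, and 360.6 RPKM in EpiSCs (191.2 after scaling). Of the 6 members that passed the filter, 4 were lower in Nanog-/- than in WT ESCs (*T*, *Gsc*, *Cer1*, and *Lhx1*) and 1 was higher (*Mixl1*). Of 10986 genes, 4.07% were lower and 6.07% higher. The log2 ratio was -1.49 for *T*, -2.72 for *Gsc*, -1.48 for *Lhx1*, and 1.41 for *Mixl1*. *Eomes* differed by -0.28 and was not called. These calls rest on low levels, at most 3.37 RPKM in WT ESCs, and only *T* and *Eomes* were above the filter in both states. With a pseudocount of 1 in place of 0.1 only *T* and *Cer1* stayed past 2-fold, and *Mixl1* no longer did (log2 ratio 0.61).

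EpiSCs and Nanog-/- ESCs were also compared directly. Against Nanog-/- ESCs, the same 6 members were 2-fold or more higher in EpiSCs and 0 were lower, where 17.6% of 11355 genes were higher and 19.2% lower. *Gsc*, *Cer1*, and *Lhx1* passed the filter through their EpiSC value only, so that these 3 could not be called lower in EpiSCs. The log2 ratios ran from 1.62 for *Mixl1* through 2.52 for *Eomes*, 6.32 for *Lhx1*, and 7.32 for *Gsc* to 7.57 for *T*. *Cer1*, listed at 0 in Nanog-/- ESCs, was called with the added 0.1 RPKM as its level there. The size of its ratio depends on that added value and is not given. The comparisons share their samples, and each is given by its own values.

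**Figure D2:**
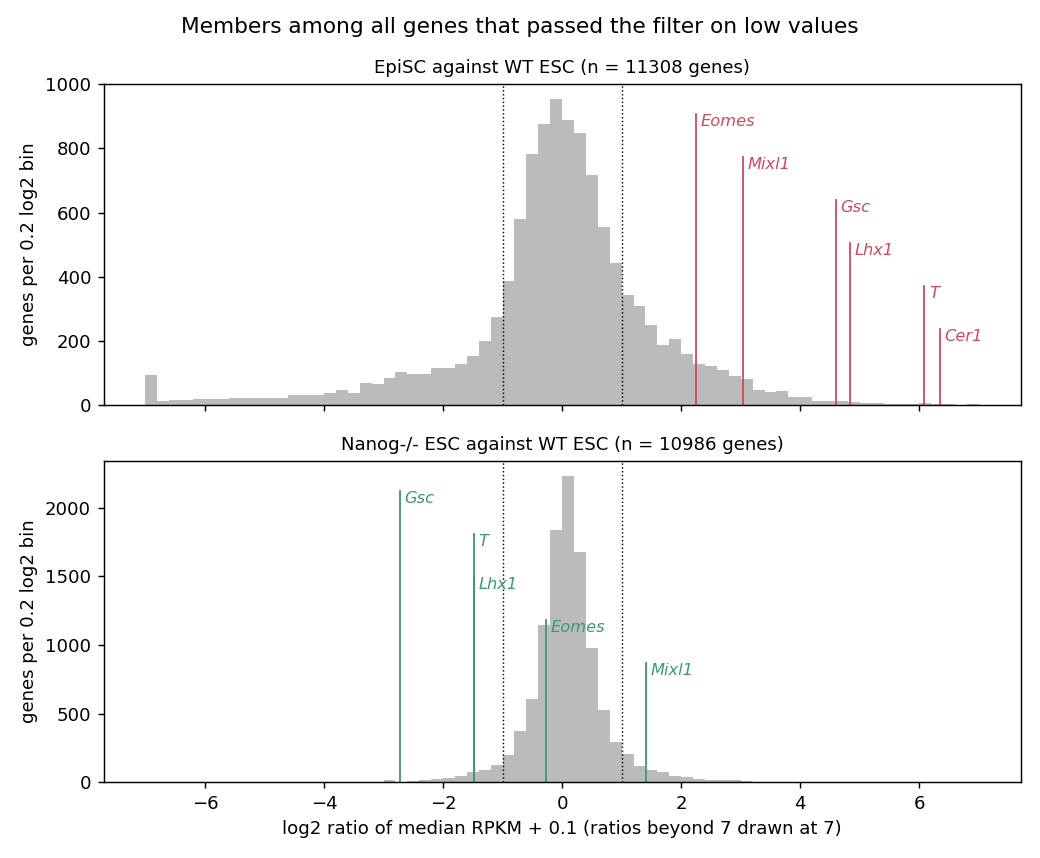
Number of genes per bin of 0.2 in the log2 ratio of EpiSCs over WT ESCs (upper, scaled EpiSC values) and of Nanog-/- ESCs over WT ESCs (lower), for genes that passed the filter. Vertical lines mark the members and dotted lines mark 2-fold, and *Cer1* is left out below because it was listed at 0. All 6 members lie right of the upper 2-fold line in EpiSCs, from 2.24 (*Eomes*) to 6.35 (*Cer1*), and in Nanog-/- ESCs *Gsc*, *T*, and *Lhx1* lie left of the lower one and *Mixl1* right of the upper one.

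Other genes of the pathway were counted in the same way, beside the 20.0% higher and 17.9% lower among all genes in EpiSCs and the 6.07% and 4.07% in Nanog-/- ESCs. In these lists and the marker lists below, a gene under 0.5 RPKM in 1 compared state passed the filter through the other state only. Such a gene could be called higher only in the state that let it pass. Among ligands, receptors, and effectors of Nodal and Activin signalling, 3 of 12 genes were higher and 2 lower in EpiSCs than in WT ESCs, shares near those of all genes, with a median log2 ratio of 0.48. *Smad3*, which carries the signal to the nucleus, had 8.23 RPKM in WT ESCs and 33.5 in EpiSCs on the scaled values. *Fst*, an Activin antagonist, had 2.60 and 40.9. The Nodal antagonists *Lefty1* and *Lefty2* differed in opposite directions. *Lefty1* had 246 and 891 RPKM, and *Lefty2* had 179.8 RPKM in WT ESCs with a log2 ratio of -2.78 in EpiSCs. *Nodal* itself had 68.7 RPKM in WT ESCs and 122 in EpiSCs as deposited, or 64.8 after scaling, so that its difference depends on the scaling. In Nanog-/- ESCs, 1 of the 12 was higher and 0 lower.

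Wnt and Fgf genes of the streak were more often higher in EpiSCs, 6 of 11 against 1 lower, with a median log2 ratio of 1.98. *Wnt3*, the ligand that starts the streak, had 1.24 and 10.5 RPKM. *Fgf5*, an epiblast ligand, had 4.74 and 116 RPKM, and *Dkk1*, a Wnt antagonist, 0.363 and 22.0 RPKM. *Cdx1*, a Wnt target of posterior tissue, had 2.44 RPKM in WT ESCs and was listed at 0 in EpiSCs. *Dkk1* passed the filter through its EpiSC value only, and *Cdx1* through its WT ESC value only. In Nanog-/- ESCs 3 of 12 were higher and 4 lower.

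Other streak and mesoderm genes were split, with 4 of 10 higher and 4 lower in EpiSCs and a median log2 ratio of 0.22. *Foxc1* (0.081 and 2.72 RPKM) and *Msgn1* (0.070 and 1.15 RPKM), both factors of paraxial mesoderm, were higher. *Mesp2*, the neighbour and relative of *Mesp1*, had 2.07 and 0.258 RPKM, and *Tbx3*, which also counts as a gene of naive pluripotency, 14.9 and 0.279 RPKM. *Foxc1* and *Msgn1* passed the filter through their EpiSC value only, and *Mesp2*, *Tbx3*, *Hand1*, and *Gata2* through their WT ESC value only. In Nanog-/- ESCs 4 of 8 were higher and 0 lower.

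Genes of the endoderm, node, and organizer gave the most one-sided count of these 4 lists, with 12 of 15 higher and 1 lower in EpiSCs and a median log2 ratio of 4.33. *Foxa1*, *Sox17*, *Frzb*, *Shh*, and *Noto* were under 0.5 RPKM in WT ESCs, so that these could not be called lower in EpiSCs. *Foxa2*, a factor of endoderm and axial mesoderm, had 0.831 RPKM in WT ESCs and 48.0 in EpiSCs. *Foxa1* had 0.330 and 17.7 RPKM, and *Nog*, a Bmp antagonist of the node, 0.638 and 36.0 RPKM. *Shh*, a signal of the node and notochord, was listed at 0 in WT ESCs and had 56.2 RPKM in EpiSCs. In Nanog-/- ESCs 6 of 13 were higher and 0 lower.

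Marker genes were counted for each state. All 8 measured genes of naive pluripotency were lower in EpiSCs (summed 991 against 27.7 RPKM) and 2 of 8 were lower in Nanog-/- ESCs. Of primed epiblast genes, 3 of 8 were higher in EpiSCs and 3 of 8 lower in Nanog-/- ESCs. *Pou5f1*, *Sox2*, *Nanog*, and *Sall4*, which mark both states, were at 50.4 RPKM or more in EpiSCs on the scaled values, with 2 of 4 lower than in WT ESCs (*Sox2* 5.46-fold and *Nanog* 2.18-fold). In Nanog-/- ESCs 1 of 4, *Nanog*, was lower. Markers of primitive and visceral endoderm, where *Cer1* is also known to be expressed, summed to 6.90 RPKM in WT ESCs, against 66.3 in EpiSCs and 81.1 in Nanog-/- ESCs. *Foxa2*, which also marks axial mesoderm, made up 0.831, 48.0, and 2.54 RPKM of these sums. Of these markers, 4 of 6 were higher and 2 lower in EpiSCs, while 7 of 7 were higher in Nanog-/- ESCs. *Sox17* (in both counts) and *Sox7* (in Nanog-/- ESCs) were under 0.5 RPKM in WT ESCs, so that neither could be called lower. *Amn* was under it in EpiSCs and could not be called higher there. *Gata6* had 0.538, 4.33, and 16.4 RPKM, *Sox7* had 0.127, 0.190, and 9.18 RPKM, and *Afp* was at or under 0.057 RPKM in each state. *Gata4*, *Gata6*, *Sox17*, and *Foxa2* stand in this list and in the endoderm list above. Fibroblast genes summed to 43.1, 151, and 58.2 RPKM, with *Col1a1* and *Col1a2* higher in EpiSCs. Of 2 neural genes passing the filter, *Nes* was higher in EpiSCs (11.8 and 144 RPKM), and of trophoblast genes 1 of 2 was higher and 1 lower in EpiSCs, and 2 of 3 higher in Nanog-/- ESCs. The part of other cell types in the members' levels was not tested.

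Few genes shared the steep profile of the leading members. Likeness was measured as the Euclidean distance over the 3 states of log2 (RPKM + 0.1), with EpiSC values scaled. Nearest to *T* were *Fgf5* (distance 1.12), *Pomc*, and *Isg15*, and no gene lay within a distance of 1. Near *Gsc* were *Pkd1l1* (1.75) and *Klhl4*, and nearest to *Cer1* were *Chst1* (2.73), *Igfbp5*, and *Nog*, again with none within 1. The distances from *Cer1* depend on the added 0.1 RPKM, because it was listed at 0 in Nanog-/- ESCs. *Lhx1* had *Pkd1l1* (0.88) and *Rtp4* (1.09) near it. The other members, of which *Mesp1* and *Evx1* were under 0.5 RPKM in every state, had many neighbours. *Eomes* had 181 genes within 1, the nearest being *Fam132a*, *Moxd1*, and *Tmc7*. *Mixl1* had 87, with *Fbln5*, *Leprel1*, and *Rin3* nearest. *Mesp1* had 258, with *Trim38*, *Gpbar1*, and *Lrrc10* nearest, and *Evx1* 130, with *Ptger2*, *Spag6*, and *Cwh43* nearest.

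The promoters of the members called in EpiSCs are printed below because they are the baited ends of the contacts that follow and because these genes were higher together. The windows, from RefSeq on GRCm38.p6, run from 250 bases before to 50 bases after the gene start, 5′ to 3′ on the gene's strand, and lie within the baited fragments. Of the 8 members 7 matched the table, and *Mixl1* did not. Both strands were searched for motifs by their exact letters, and capitals mark a match. Of core promoter motifs, the TATA box was searched as TATAAA. For the Wnt effectors TCF/LEF the letters were CTTTGAT. For the Nodal effector FOXH1 they were AATACAC. A second FOXH1 form was AATCCAC. The SMAD palindrome was searched as GTCTAGAC, a T-box site as AGGTGTGA, and the octamer of POU factors as ATGCAAAT.
T promoter, chr17:8434173-8434472 (+ strand): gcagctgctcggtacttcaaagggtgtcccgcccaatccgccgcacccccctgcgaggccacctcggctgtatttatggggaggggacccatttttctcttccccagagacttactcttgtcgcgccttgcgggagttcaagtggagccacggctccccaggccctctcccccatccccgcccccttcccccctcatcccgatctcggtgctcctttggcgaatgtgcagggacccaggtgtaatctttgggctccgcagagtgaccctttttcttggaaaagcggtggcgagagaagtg
Eomes promoter, chr9:118477939-118478238 (+ strand): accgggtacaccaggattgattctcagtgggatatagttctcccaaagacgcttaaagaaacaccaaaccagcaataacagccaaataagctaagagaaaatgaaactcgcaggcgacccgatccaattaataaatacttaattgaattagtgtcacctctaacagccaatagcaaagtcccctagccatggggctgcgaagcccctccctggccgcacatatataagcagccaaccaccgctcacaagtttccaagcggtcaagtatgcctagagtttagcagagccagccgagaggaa
Gsc promoter, chr12:104473187-104473486 (- strand): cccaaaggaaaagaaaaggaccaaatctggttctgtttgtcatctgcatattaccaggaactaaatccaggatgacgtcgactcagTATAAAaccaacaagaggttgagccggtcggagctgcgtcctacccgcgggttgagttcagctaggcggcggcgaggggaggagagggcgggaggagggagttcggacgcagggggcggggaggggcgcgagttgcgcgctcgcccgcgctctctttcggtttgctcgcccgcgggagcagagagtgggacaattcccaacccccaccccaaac
Cer1 promoter, chr4:82885102-82885401 (- strand): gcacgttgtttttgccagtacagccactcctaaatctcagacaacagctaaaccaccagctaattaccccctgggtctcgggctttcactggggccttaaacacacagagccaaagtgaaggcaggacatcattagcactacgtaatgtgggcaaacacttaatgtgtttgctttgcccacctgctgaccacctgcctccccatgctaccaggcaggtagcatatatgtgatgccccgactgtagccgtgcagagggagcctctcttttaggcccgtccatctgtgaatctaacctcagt
Lhx1 promoter, chr11:84525485-84525784 (- strand): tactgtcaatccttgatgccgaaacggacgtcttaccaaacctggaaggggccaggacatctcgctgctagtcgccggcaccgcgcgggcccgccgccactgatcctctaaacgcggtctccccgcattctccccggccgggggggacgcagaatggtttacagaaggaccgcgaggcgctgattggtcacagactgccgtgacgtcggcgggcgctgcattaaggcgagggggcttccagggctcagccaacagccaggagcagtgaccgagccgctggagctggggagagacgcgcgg

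Among these, the *Gsc* window held TATAAA, which starts 164 bases before the RefSeq start, and 13.6% of 32851 windows of this length hold it. The *Mesp1* window held CTTTGAT (3.73% of windows) and, on the opposite strand, AGGTGTGA (1.28%), and the *Evx1* window held ATGCAAAT on the opposite strand (1.74%). The remaining letters, AATACAC (2.26%), AATCCAC (2.49%), and GTCTAGAC (0.213%), were in none of the 7 windows. GC content ran from 47.3% in *Eomes* and 48.7% in *Evx1* to 61.7% in *T* and 65.7% in *Lhx1*, around a median of 52.7% over all windows. *Lhx1* had 31 CpG dinucleotides, *Gsc* 25, and *T* 17, while *Eomes* had 10, *Cer1* 6, and *Mesp1* 4, beside a median of 7. Among the members called in EpiSCs, CpG counts thus ran from near the median (*Cer1*) to well above it (*Lhx1*).

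The 8 baited promoters held 99 contacts in the WT ESC list, 79 in the EpiSC list, and 72 in the Nanog-/- ESC list. Each contact is given with its number of read pairs and its CHiCAGO score, which weighs the reads against the background for that distance. All listed scores are 5 or more, so a contact missing from a list fell under that score there and its reads are unknown. The lists hold 100492, 87369, and 74931 different pairs of fragments, of which the members' contacts made up 0.0985%, 0.0904%, and 0.0961%. Listed pairs sum to 2177284, 1651286, and 1438555 reads, which covers called interactions only. The members' contacts had medians of 12, 9, and 10.5 reads and of 143, 230.3, and 108 kb between fragment midpoints, beside 139, 141, and 74.1 kb over all pairs.

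Higher expression in EpiSCs did not go with more contacts for all members. *T* had 12 contacts in WT ESCs, against 3 in EpiSCs and 7 in Nanog-/- ESCs. *Eomes* had 11, 22, and 3, *Mixl1* 13, 4, and 5, and *Gsc* 13, 12, and 2. *Cer1* had 1, 2, and 1, and *Lhx1* 9, 6, and 5. The low-expressed *Mesp1* had 14, 8, and 20 contacts, and *Evx1* 26, 22, and 29. A baited fragment with contacts had a median of 4 in each list, so *Evx1* stood at percentile 95.9 of all baited fragments in WT ESCs and *Cer1* at 19.04.

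For a comparison of numbers, fragments with at least 5 contacts in 1 of the compared lists were used, a rule set after the counts were seen, which 7 members met. *Eomes* had at least 2-fold more contacts in EpiSCs than in WT ESCs, as did 14.6% of 9549 baited fragments, and *T* and *Mixl1* had at least 2-fold fewer, as did 28.8%. In Nanog-/- ESCs, *Eomes*, *Mixl1*, and *Gsc* had at least 2-fold fewer contacts than in WT ESCs, as did 30.3% of 8831 fragments, and 0 members had at least 2-fold more, beside 6.25%. After division by list size, *Mixl1* was no longer 2-fold lower in Nanog-/- ESCs.

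**Figure D3:**
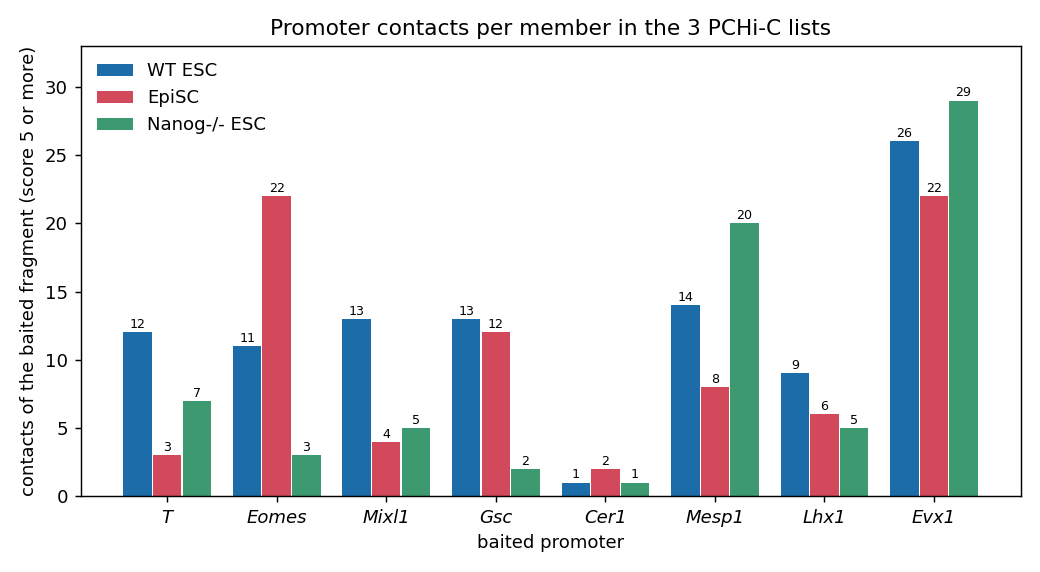
Number of contacts with a CHiCAGO score of 5 or more for each baited promoter in the WT ESC, EpiSC, and Nanog-/- ESC lists, 1 bar for each member and list with its count above it. *Eomes* has its tallest bar in EpiSCs (22), *T* and *Mixl1* theirs in WT ESCs (12 and 13), and *Mesp1* and *Evx1* theirs in Nanog-/- ESCs (20 and 29).

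Over the 3 lists the members had 169 different contacts, of which 108 were in 1 list, 41 in 2, and 20 in all 3 (11.8%, beside 14.4% of all pairs). Of the 99 WT ESC contacts, 29 were also in the EpiSC list (29.3%, Wilson 95% interval 21.2% to 38.9%), and these were 36.7% of the 79 EpiSC contacts (26.9% to 47.7%). The shares for all pairs were 39.6% and 45.5%. With Nanog-/- ESCs, WT ESCs had 44 contacts in common, 44.4% of the 99 (35.0% to 54.3%) and 61.1% of the 72 (49.6% to 71.5%), beside 41.8% and 56.03% of all pairs. EpiSCs and Nanog-/- ESCs had 28 in common, 35.4% of the EpiSC contacts and 38.9% of the Nanog-/- ESC contacts, beside 36.4% and 42.4% of all pairs. The intervals cover counting error only and treat contacts as independent, although neighbouring ends share a bait. When an end within 10 kb counted as the same contact, 57.6% of WT ESC contacts were also in the EpiSC list and 61.6% in the Nanog-/- ESC list. A wider match can only raise such a share, and it was not computed for all pairs.

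**Figure D4:**
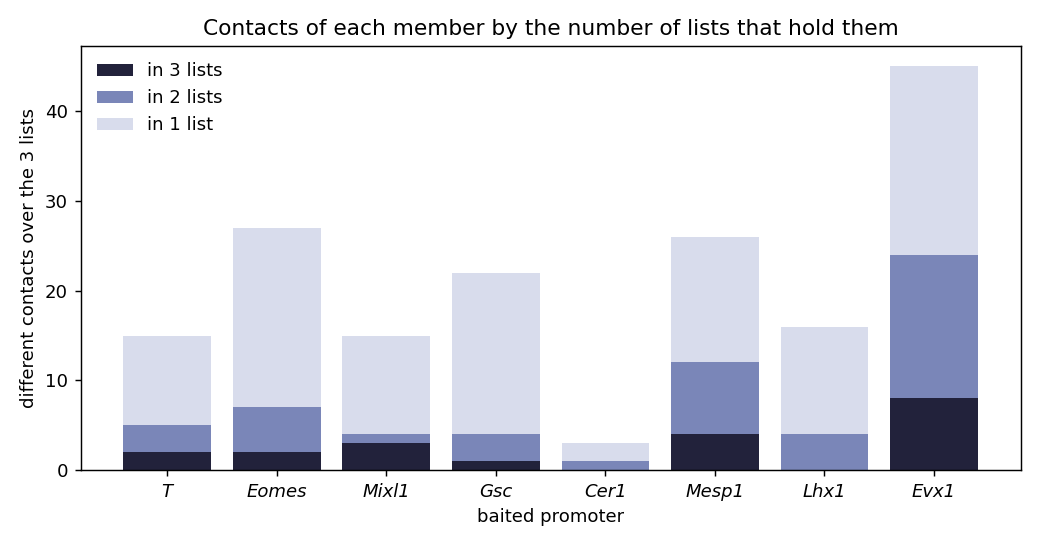
Number of different contacts of each baited promoter over the 3 lists, stacked by whether a contact is in 1, 2, or 3 lists. *Evx1* has 8 contacts in all 3 lists, *Mesp1* 4, and *Mixl1* 3, while *Cer1* and *Lhx1* have none.

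Of the 169 ends, 63 overlapped an exon of a protein-coding gene, 37 lay in introns only, and 69 lay between genes. Another baited promoter was the partner in 27 of 99 contacts in WT ESCs, 16 of 79 in EpiSCs, and 28 of 72 in Nanog-/- ESCs (27.3%, 20.3%, and 38.9%, beside 23.1%, 18.4%, and 22.0% of all pairs). No contact joined 2 of the members or different chromosomes.

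*T* (chromosome 17, bait 8432299 to 8439036 on GRCm38, like all coordinates given) contacted mainly the side of lower coordinates, with 10 of 12 contacts in WT ESCs, 2 of 3 in EpiSCs, and 7 of 7 in Nanog-/- ESCs. An end 6.44 kb from the bait and between genes (8427115 to 8431349) was in all 3 lists, with 87, 63, and 58 reads in WT ESCs, EpiSCs, and Nanog-/- ESCs and scores of 11.9, 5.82, and 9.27. The *Sft2d1* promoter fragment, 129 kb away, was also in all 3, with 14, 8, and 8 reads. *Sft2d1*, a gene of vesicle transport, had 11.1, 3.70, and 11.3 RPKM.

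The highest score of *T* in WT ESCs, 13.1 from 19 reads, joined it to the *Prr18* promoter 94.1 kb away (8339803 to 8343423). This contact had 7 reads in Nanog-/- ESCs and was not listed in EpiSCs. The *Brp44l* promoter (*Mpc1* in GENCODE, a mitochondrial pyruvate carrier subunit) and the *Ccr6* promoter were likewise listed in WT and Nanog-/- ESCs only. In EpiSCs the highest score, 6.50 from 5 reads, was for an end in an intron of *Pde10a*, 364 kb toward higher coordinates, next to the fragment that *T* contacted in WT ESCs (5 reads, score 6.43). *T* thus had its highest RNA level in the list with its fewest contacts.

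*Eomes* (chromosome 9, bait 118476929 to 118479890) had more contacts in EpiSCs than in WT ESCs. Of the 22 EpiSC contacts 16 were not in the WT ESC list, 14 of them at 210 kb or more from the bait and 2 at 70.4 and 84.9 kb. Distances were grouped after they were seen. Within 120 kb *Eomes* had 5 contacts in WT ESCs, against 5 in EpiSCs and 3 in Nanog-/- ESCs. Between that and 300 kb it had 0, 5, and 0, the EpiSC ones at 210 to 282 kb, and above 300 kb 6, 12, and 0. All 22 EpiSC contacts lay on the side of lower coordinates, toward *Cmc1* and *Azi2*. The highest score, 14.3 from 11 reads, joined *Eomes* to the promoter fragment of *Cmc1*, a mitochondrial assembly factor, 329 kb away (118148345 to 118151002). This fragment was in the EpiSC list only. The fragment next to it (118151003 to 118151855), 327 kb from the bait, was contacted in WT ESCs (6 reads, score 5.86) and EpiSCs (7 reads, score 7.79). *Cmc1* itself had 54.9, 50.5, and 59.4 RPKM in WT ESCs, EpiSCs, and Nanog-/- ESCs.

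The *Azi2* promoter fragment, 437 kb away, was in contact with *Eomes* in WT ESCs (6 reads, score 5.64) and EpiSCs (4 reads, score 5.05). In WT ESCs the highest score, 8.22 from 16 reads, was for an end between genes at 81.1 kb (118393836 to 118400799), in that list only. The fragment next to it, at 84.9 kb, was contacted in EpiSCs (14 reads, score 7.28). Ends at 98.8 kb (11, 10, and 8 reads) and 89.4 kb (14, 14, and 9 reads), both between genes, were in all 3 lists. An end 9.23 kb from the bait, named *U4.21* after a small RNA, had 93 reads in WT ESCs and 42 in Nanog-/- ESCs and was not listed in EpiSCs. Of the 22 EpiSC ends, 11 were also contacted by the *Golga4* bait and 11 by the *U4.21* bait in that list, 15 different ends in all, so that most of these ends are not specific to the *Eomes* bait.

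*Mixl1* (chromosome 1, bait 180693243 to 180703721) kept 3 contacts on the side of higher coordinates in all lists. The *Acbd3* promoter fragment, 25.4 kb away, had 40, 38, and 22 reads and scores of 8.11, 8.04, and 11.6. The bait named *AC167020.1*, 35.3 kb away, had 28, 27, and 12 reads, and an end between genes at 64.9 kb had 25, 20, and 15. *Acbd3*, a Golgi protein gene, had 23.1, 30.3, and 33.3 RPKM. On the other side *Mixl1* had 10 contacts in WT ESCs, against 1 in EpiSCs and 2 in Nanog-/- ESCs. These included the highest WT ESC score, 10.2 from 8 reads, with the promoter of *Parp1*, a DNA repair gene, 131 kb away. This promoter fragment was in the WT ESC list only. Another end with a *Parp1* exon, 118 kb away, was contacted in Nanog-/- ESCs (9 reads, score 5.56). *Parp1* had 448, 179.4, and 284 RPKM. The *Lin9* promoter, 55.5 kb away, was listed in WT ESCs (34 reads) and Nanog-/- ESCs (22 reads).

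*Gsc* (chromosome 12, bait 104471034 to 104477639) contacted the side of higher coordinates only, in all 3 lists. Its single contact in all of them was an end in an intron of *Syne3*, 468 kb away (104941766 to 104942627), with 12, 8, and 10 reads and scores of 9.71, 7.06, and 10.8. This was the highest score in WT and in Nanog-/- ESCs. In EpiSCs the highest score, 10.7 from 15 reads, was for an end with an exon of *Dicer1*, the enzyme that matures microRNAs. This end, 246 kb away (104719761 to 104720628), was in the EpiSC list only. WT ESCs contacted other ends in *Dicer1*, at 219 kb (12 reads, score 5.34), 233 kb (13 reads, score 6.49), and 244 kb (11 reads, score 5.26). The one at 233 kb was also in the EpiSC list (12 reads, score 7.58). The median distance was 391 kb in WT ESCs, 234 kb in EpiSCs, and 465.0 kb over the 2 contacts in Nanog-/- ESCs. The *Clmn* promoter, 391 kb away, was contacted in WT ESCs (11 reads, score 6.31).

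*Cer1* (chromosome 4, bait 82878587 to 82887284) had the fewest contacts and no baited partner. In WT ESCs its contact was an end between genes 316 kb away (83198451 to 83199305, 7 reads, score 5.07). In EpiSCs it contacted instead a pair of short fragments that lie just upstream of the bait, at 7.33 kb (80 reads, score 7.71) and 8.45 kb (66 reads, score 6.69). The nearer one was also listed in Nanog-/- ESCs (59 reads, score 6.13), where *Cer1* was listed at 0 RPKM. Both fragments lie between genes and are printed because they are the whole set of *Cer1* contacts in EpiSCs. Capitals mark what is left of the HindIII site at each end.
Cer1 contact end, chr4:82890181-82890351 (+ strand): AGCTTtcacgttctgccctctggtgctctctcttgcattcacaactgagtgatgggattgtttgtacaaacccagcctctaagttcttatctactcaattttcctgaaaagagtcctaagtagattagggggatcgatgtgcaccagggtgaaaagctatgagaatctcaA
Cer1 contact end, chr4:82891274-82891490 (+ strand): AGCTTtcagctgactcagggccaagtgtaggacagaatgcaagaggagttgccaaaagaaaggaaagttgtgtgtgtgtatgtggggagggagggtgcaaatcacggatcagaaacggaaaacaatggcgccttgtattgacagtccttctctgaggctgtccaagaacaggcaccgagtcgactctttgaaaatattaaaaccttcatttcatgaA

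The fragments are 171 and 217 bases long, with a GC content of 43.9% and 46.1%. Their distance from the *Cer1* bait is among the shortest of all members' contacts, and reads at such distances are numerous, which the score takes into account.

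*Lhx1* (chromosome 11, bait 84524705 to 84525899) contacted the side of higher coordinates only and shared no contact over all 3 lists. In WT ESCs the highest score, 13.0 from 12 reads, was with the bait named *AL603708.1*, 120 kb away (84643401 to 84648104). It was also in the Nanog-/- ESC list (6 reads, score 8.32). The bait named *uce*, 242 kb away, had 9 reads in WT ESCs and 7 in Nanog-/- ESCs, with the highest score of the latter list (8.60). In EpiSCs the highest score, 7.04 from 7 reads, was for an end between genes at 176 kb (84700666 to 84702712). The promoter of *Mrm1*, an enzyme that modifies mitochondrial ribosomal RNA, was contacted in EpiSCs (5 reads, score 5.5) and Nanog-/- ESCs (6 reads, score 7.48).

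Contacts above 800 kb were 4 of 99 in WT ESCs (4.04%, Wilson 95% interval 1.58% to 9.93%), 0 of 79 in EpiSCs (up to 4.64%), and 0 of 72 in Nanog-/- ESCs (up to 5.07%), beside 1.30%, 1.78%, and 0.370% of all pairs. They belonged to *Lhx1* and *Evx1*. *Lhx1* reached the promoter fragment of *Tbx2*, 1305 kb away (4 reads, score 5.04), a second end with an exon of *Tbx2* (5 reads, score 8.80), and an end with an exon of *Tbx4*, 1371 kb away (4 reads, score 6.20). *Tbx2* and *Tbx4* are T-box factors, and *Tbx2* had 0.308, 0.926, and 0.235 RPKM. The remaining one joined *Evx1* to an end near *Vax2*, 31392 kb away (4 reads, score 9.96). Each rests on 4 or 5 reads, and a difference between lists was not detectable at this depth.

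*Mesp1* (chromosome 7, bait 79792293 to 79799117) contacted *Ap3s2*, a gene of vesicle sorting, in every list. Ends that overlap *Ap3s2* took 6 of 14 contacts in WT ESCs, 4 of 8 in EpiSCs, and 7 of 20 in Nanog-/- ESCs. An end in an *Ap3s2* intron, 113 kb away (79908486 to 79909543), had the highest score in WT ESCs (21 reads, score 15.6) and in Nanog-/- ESCs (15 reads, score 17.5), and 13 reads with a score of 8.45 in EpiSCs. The *Mesp2* bait contacted 1, 3, and 3 of the *Ap3s2* ends in WT ESCs, EpiSCs, and Nanog-/- ESCs.

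Another *Ap3s2* end at 100.3 kb had the highest EpiSC score of *Mesp1* (14 reads, score 8.65), and 10 reads in WT ESCs and 12 in Nanog-/- ESCs. The *Anpep* promoter, 53.0 kb away, was contacted in EpiSCs (22 reads, score 6.47) and Nanog-/- ESCs (16 reads, score 10.6), and the *Plin1* promoter, 61.8 kb away on the other side, in WT ESCs (22 reads) and Nanog-/- ESCs (12 reads). *Anpep*, a membrane peptidase, had 11.4, 9.12, and 21.2 RPKM. A further *Ap3s2* intron end, at 110 kb, was in all 3 lists with 18, 13, and 12 reads. The *Ap3s2* promoter itself was contacted in EpiSCs (8 reads) and Nanog-/- ESCs (5 reads). The bait named *2610034B18Rik*, 137 kb away, was in all 3 lists (12, 6, and 7 reads).

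*Evx1* (chromosome 6, bait 52306633 to 52315589) lies next to the *HoxA* cluster and had contacts on both sides, in shares that differed between the lists. The sides were separated after the values were seen. On the *HoxA* side, from 52155462 to 52266779, it had 22 contacts with 603 reads in WT ESCs, 8 with 143 reads in EpiSCs, and 22 with 403 reads in Nanog-/- ESCs. On the other side, between 223 and 607 kb away toward *Hibadh* and *Jazf1*, it had 3 contacts with 37 reads in WT ESCs, 14 with 144 reads in EpiSCs, and 7 with 57 reads in Nanog-/- ESCs. WT ESCs and Nanog-/- ESCs thus had most of their *Evx1* reads toward *HoxA*, and EpiSCs about as many on either side. With a score of at least 7, EpiSCs had 4 contacts toward *HoxA* and 6 on the other side.

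The *Hoxa13* promoter fragment, 47.9 kb away (52259630 to 52266779), was in all 3 lists with 34, 23, and 29 reads and scores of 17.6, 14.6, and 28.3, the last being the highest score of any member's contact. *Hoxa13*, a factor of the posterior body, had 0.022, 0.252, and 0.087 RPKM. The highest WT ESC score, 19.3 from 37 reads, joined *Evx1* to the bait named *2700086A05Rik*, 135 kb away, which had 16 reads in each other list. The *Hoxa11as* promoter, 62.9 kb away, had 68 reads in WT ESCs and 51 in Nanog-/- ESCs and was not listed in EpiSCs. The baits named *Hoxa4*, *Hoxa5*, and *Hoxa10* were contacted in the same lists, and those named *Hoxa3* and *Hoxa6* in Nanog-/- ESCs only. These 2 genes also had exons in other contacted ends. The *Gm15050* fragment, in all 3 lists, overlaps a *Hoxa3* exon, and the *Hoxa5* fragment a *Hoxa6* exon. Of these partners, *Hoxa5* had 0.079, 0.353, and 2.29 RPKM in WT ESCs, EpiSCs, and Nanog-/- ESCs. *Hoxa2*, in all 3 lists (25, 12, and 19 reads), had 0.033, 0.148, and 0.390 RPKM. The other baits in all 3 lists were *Gm15050* (19, 12, and 13 reads) and *Mir196b* (48, 19, and 25 reads), and next to *Hoxa13* an end between genes (48, 26, and 21 reads) and an end with a *Hoxa13* exon (35, 26, and 31 reads) were also in all of them. *Gm15051* was contacted in WT ESCs (17 reads) and EpiSCs (9 reads).

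On the other side, an end in an intron of *Hibadh*, a gene of valine breakdown, 266 kb away (52576484 to 52578118), was in all 3 lists with 14, 24, and 10 reads. Its score of 20.96 was the highest of any member's contact in EpiSCs, beside 8.65 in WT ESCs and 7.87 in Nanog-/- ESCs. The EpiSC list held 6 further ends in *Hibadh* introns, and reached an end in an intron of *Jazf1* at 607 kb (9 reads, score 10.1). The bait named *SNORA32.6*, 328.0 kb away within *Hibadh*, was contacted in EpiSCs (7 reads) and Nanog-/- ESCs (6 reads). Many ends were touched by other baits. Of the 26 WT ESC contacts, 23 had an end that another bait also contacted, most often *Hoxa11as* (19 ends), as had 10 of 22 in EpiSCs and 22 of 29 in Nanog-/- ESCs. On the *Hibadh* to *Jazf1* side, 3 of the 14 EpiSC ends were shared in this way.

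**Figure D5:**
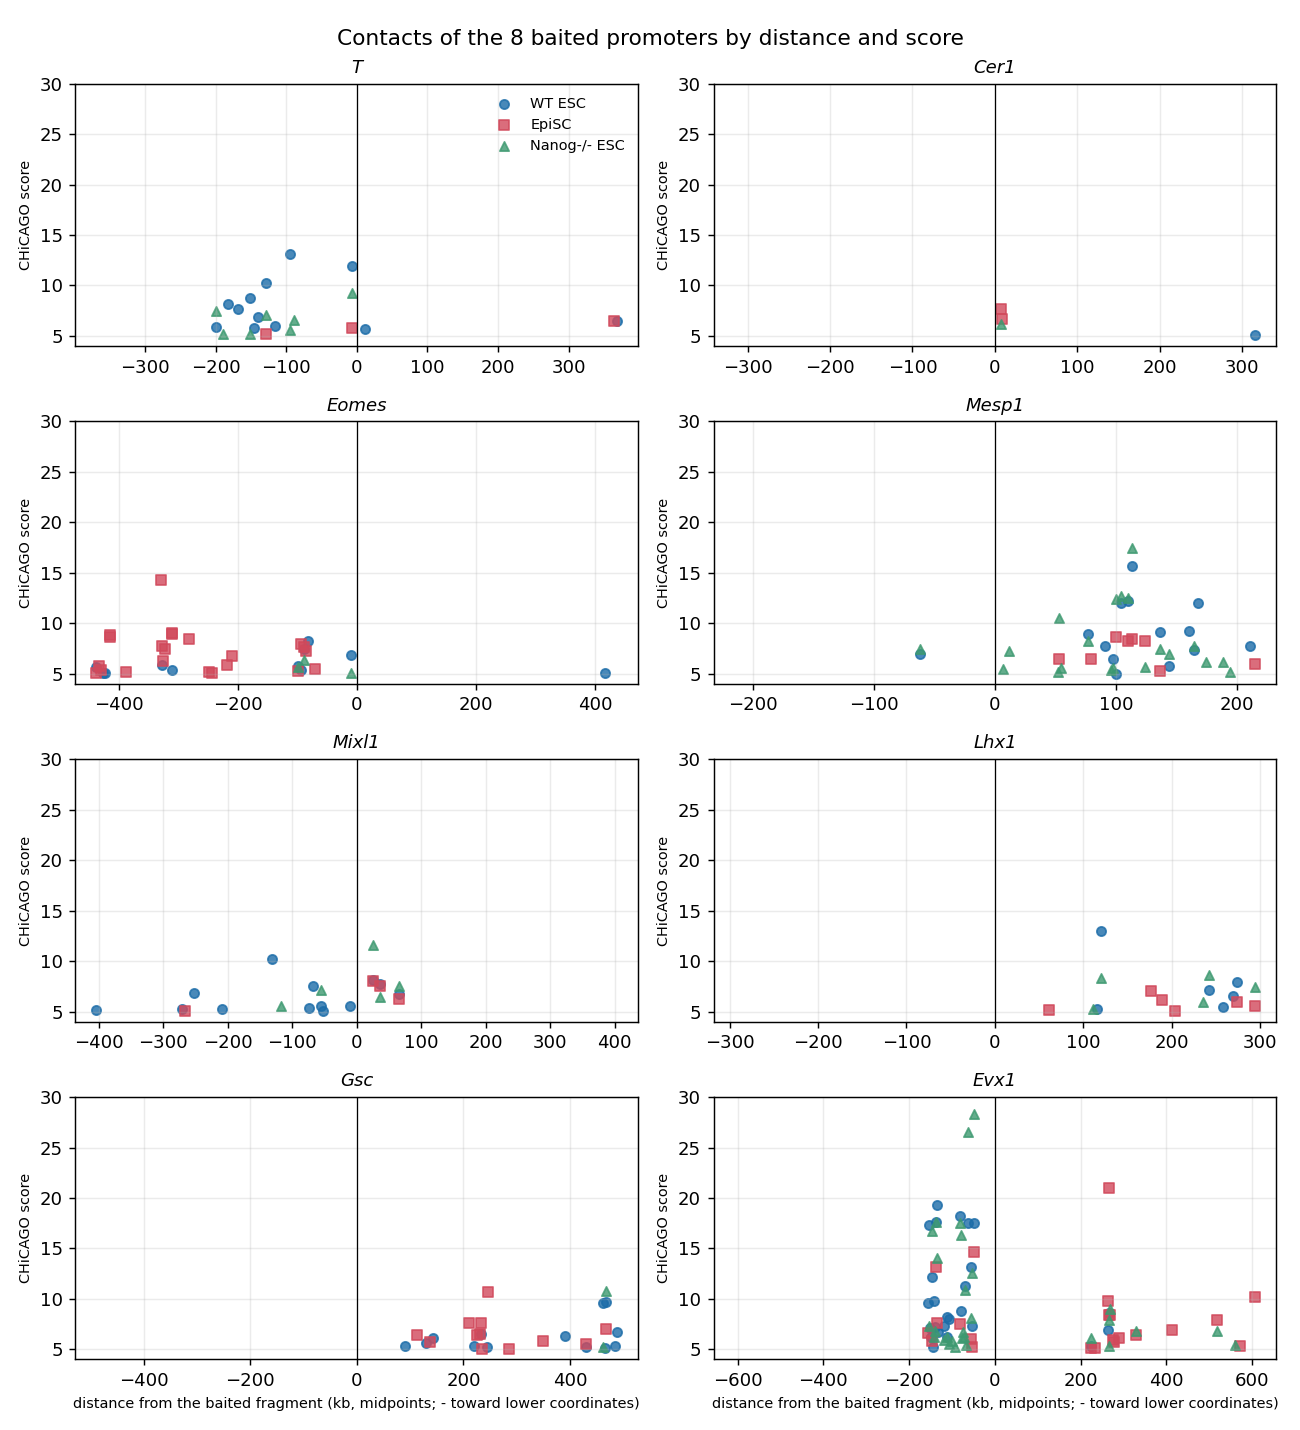
CHiCAGO score against the distance in kb from the baited fragment (negative toward lower coordinates) for each contact within 800 kb, 1 panel for each member, with WT ESCs as circles, EpiSCs as squares, and Nanog-/- ESCs as triangles. The 4 longer contacts, of *Lhx1* and *Evx1* in WT ESCs, are not drawn. *Gsc* and *Lhx1* have points to the right only, the *Eomes* squares all lie to the left, and the *Evx1* squares lie more often to the right (14) than to the left (8).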

How the data were processed

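The authors cut PCHi-C libraries with HindIII, processed the reads with HiCUP, and called interactions with CHiCAGO on 2 biological replicates per state, which they combined. Bowtie 1.1.0 and GRCm38 (mm10) stand in the submitters' processing notes, as do Trim Galore, TopHat, and DESeq2 for RNA-seq, without versions. The deposited lists hold the read count of each pair of fragments and its CHiCAGO score of 5 or more, weighted against the background expected at that distance, and the deposited RNA-seq table holds the authors' median RPKM for each state. How the RPKM values were made is not given further in the sources used here. Because only medians and combined lists are given, spread between replicates could not be measured, and CHiCAGO calls at a threshold can differ between lists through depth alone. The RNA column named BT12 was taken as Nanog-/- ESCs from the line name in the labels. Fold changes and p-values of the authors' own RNA comparisons, in the same table, were not used, and 0 columns with values of single samples were left out. ChIP-seq samples of EpiSCs were not analysed here.

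From these files, EpiSC RPKM values were divided by their median ratio to WT ESCs over genes at 1 RPKM or more in both states, log2 ratios used a pseudocount of 0.1 RPKM, and a call needed a 2-fold difference and 0.5 RPKM in 1 of the states. No test was made. A pair of fragments listed from both ends was kept once with its higher score, distance was taken between midpoints, and annotation came from GENCODE M21. Wilson intervals are at 95%. Python 3.11.15, pandas 2.3.3, numpy 2.4.6, scipy 1.17.1, matplotlib 3.10.9, pysam 0.24.0, and samtools 1.23.1 were used, and the counting steps were tested on simulated data.

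The members, the 4 gene lists, and the 7 marker lists were chosen with earlier results of these data known. Named were all members, the 4 genes of each list with the largest EpiSC ratio among those at 1 RPKM or more in 1 of the states, the 3 nearest genes in expression, and of contacts the highest score in each list, those in all 3 lists, those with a baited gene, and those above 800 kb. *Nodal*, *Sox7*, and *Afp*, and further contacts of *T*, *Eomes*, *Mixl1*, *Gsc*, and *Evx1*, were named after their values were seen. Some items that this rule names are not reported here. Alternatives varied the pseudocount, the filter, the scaling, the fold, the score, the reads, and the distance.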

Additional observations from a re-analysis of the deposited data

How the results depend on the processing

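No paired analysis was possible because the deposited values are 1 median or 1 combined list for each state, and for the same reason no replicate could be left out. Of 84 alternatives for the counts and shares of the members, 65 stayed within the set limits and 19 moved, and a reversal was not defined for these. Of 194 for single members' ratios and sides 179 stayed, 15 moved, and 0 reversed. A changed filter or fold leaves the sign of a ratio as it is, and a changed scaling cannot alter a comparison without the scaled state. These tallies therefore include alternatives that could not move or reverse a result. The 6 members higher in EpiSCs than in WT ESCs were called under every alternative of pseudocount, filter, scaling, and fold. Without a filter on low values, 2 members (*Mesp1* and *Evx1*) were also called lower in EpiSCs than in WT ESCs, and 1 (*Mesp1*) lower than in Nanog-/- ESCs, all under 0.5 RPKM. Members higher in Nanog-/- ESCs than in WT ESCs fell to 0 with a pseudocount of 1 and with a 4-fold threshold. Members lower there numbered 2 with a pseudocount of 1 or a filter at 1 RPKM (*T* and *Cer1*), and 2 at 4-fold (*Gsc* and *Cer1*). A score of at least 7 left 49, 33, and 33 contacts in WT ESCs, EpiSCs, and Nanog-/- ESCs, and a score of at least 10 left 18, 6, and 16. With at least 10 reads, 36 remained in EpiSCs and 39 in Nanog-/- ESCs. The share of WT ESC contacts also in EpiSCs was 57.6% with ends matched within 10 kb. The share also in Nanog-/- ESCs was 61.6% with ends within 10 kb, 71.4% for WT ESC contacts with a score of at least 7, and 61.2% for those with at least 10 reads. These cuts on score and reads applied to the WT ESC list only, and for EpiSCs they gave 38.8% and 35.8%. With a score of at least 7 in both lists, the share was 51.0% for Nanog-/- ESCs and 22.4% for EpiSCs. A contact of 4 to 10 reads near the score threshold can be missing from a list by counting error alone, so single contacts found in 1 list only are weak evidence of a difference.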
